A study of Mus musculus with 4 samples.

Results

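Trimethylation of histone H3 on lysine 4 (H3K4me3) and on lysine 9 (H3K9me3) was compared within resting mouse macrophages. These were peritoneal macrophages of 8-week-old C57BL/6 mice, drawn into the peritoneal cavity with thioglycollate, left to attach to dishes and kept for 24 h with phosphate-buffered saline (PBS). The series holds 4 chromatin immunoprecipitation sequencing (ChIP-seq) libraries, 1 for each mark in cells given PBS and in cells given lipopolysaccharide (LPS) for 24 h. The PBS pair was chosen by its treatment label, 2 of the 4 libraries, with its peaks on chromosomes 1 to 19 and X. It held 50530 of the 96296 listed peaks, 31368 for H3K4me3 (antibody ab8580) and 19162 for H3K9me3 (antibody ab8898). Strain, age, thioglycollate and culture were shared by all groups, and the labels do not say how many animals were pooled.

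H3K4me3 is placed by the SET1 and MLL enzyme complexes around the starts of genes that are active or ready to be activated, most of all where CpG dinucleotides are dense and unmethylated. H3K9me3 is placed by SUV39H enzymes and SETDB1, is bound by HP1 proteins, and covers heterochromatin, satellite DNA, endogenous retroviruses and clusters of zinc finger genes. The marks are usually found on different chromatin, and known places where they meet include imprinted genes, whose maternal and paternal copies carry different marks. Such a meeting in a population of cells can also come from different cells.

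No group had replicates, so no test between libraries was made, and intervals are exact 95% Clopper-Pearson intervals that cover counting error only. Tags (aligned reads) need not be independent molecules, since the labels name no molecular identifiers. After the caller's filter the libraries held 29681491 (H3K4me3) and 27727997 (H3K9me3) tags. Peaks held 17.8% of the H3K4me3 tags over 41.2 Mb and 1.67% of the H3K9me3 tags over 5.63 Mb. The median peak had 89 tags and a width of 1051 bp for H3K4me3, and 16 tags and 245 bp for H3K9me3. Weak peaks recurred less often in the LPS list of the same mark: 14.9% of H3K9me3 peaks under 15 tags did, and 89.2% of those with 100 tags or more. A place without a listed peak fell below the caller's threshold and may still carry the mark. Peaks had been called without a control library, so coverage that both libraries share and joint marking cannot be told apart. Nor can fewer marked cells and less mark per cell.

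Of 31368 H3K4me3 peaks, 3936 met an H3K9me3 peak by at least 1 bp, which is 12.5% (12.2 to 12.9). Of 19162 H3K9me3 peaks, 4297 met an H3K4me3 peak, which is 22.4%. The shared bases came to 3.86% of the H3K4me3 bases and 28.2% of the H3K9me3 bases. After peaks that overlapped were merged, 27432 regions carried H3K4me3 only, 14865 carried H3K9me3 only and 3935 carried both. Regions with both marks were thus 8.51% of all regions, and the rest of the description follows these 3 kinds, first as regions and then as genes.

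Sequences next to 5 genes are shown first, as single examples of the 3 kinds of gene end, with CpG dinucleotides written in capitals. They are RefSeq sequence of GRCm38.p6 (the build mm10), cut to the part upstream of the start that lies outside every annotated gene, 5′ to 3′ on the gene's strand. Peg3, an imprinted zinc finger gene expressed from the paternal copy, and Dazl, a germ cell gene for an RNA-binding protein, carried both marks. For Peg3 this is the stretch between it and its divergent neighbour Usp29, at chr7:6730463-6730558, minus strand, with 3 CpG in 96 bases, all 96 in an H3K4me3 peak and 20 in an H3K9me3 peak. For Dazl it is chr17:50293621-50293870, minus strand, with 20 CpG in 250 bases, every base inside a peak of both marks. Stat6, the transcription factor of the interleukin 4 response, carried H3K4me3 only at chr10:127642736-127642954, plus strand, with 5 CpG in 219 bases. Tdrd1 and Mael, genes of the piRNA pathway that silences transposons in germ cells, carried H3K9me3 only. The Tdrd1 stretch, chr19:56825959-56826170 on the plus strand, has 6 CpG in 212 bases, 42 of them in the peak. The Mael stretch, chr1:166238745-166238994 on the minus strand, has 18 CpG in 250 bases, 78 of them in the peak. As single examples these stretches do not stand for their classes in CpG: Dazl was at the median given next, and Mael was far above it. The Peg3, Stat6 and Tdrd1 stretches are shorter than the 250 bases behind the medians, so their counts are not set against them. In the 250 bases upstream of the start, the median was 15 CpG with H3K4me3 only, 4 with H3K9me3 only and 20 with overlapping marks at an end.
Peg3: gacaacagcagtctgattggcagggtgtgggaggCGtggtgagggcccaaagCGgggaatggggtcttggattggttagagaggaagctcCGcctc
Dazl: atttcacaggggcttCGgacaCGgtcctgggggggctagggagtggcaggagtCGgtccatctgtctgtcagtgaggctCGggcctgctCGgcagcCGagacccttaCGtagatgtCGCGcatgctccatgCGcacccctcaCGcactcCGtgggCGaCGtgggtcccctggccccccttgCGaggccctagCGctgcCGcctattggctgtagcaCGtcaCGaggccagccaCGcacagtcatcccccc
Stat6: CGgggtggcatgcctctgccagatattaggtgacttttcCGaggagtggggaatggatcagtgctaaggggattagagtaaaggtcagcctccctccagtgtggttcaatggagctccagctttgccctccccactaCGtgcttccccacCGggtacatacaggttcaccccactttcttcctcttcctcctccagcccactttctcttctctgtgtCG
Tdrd1: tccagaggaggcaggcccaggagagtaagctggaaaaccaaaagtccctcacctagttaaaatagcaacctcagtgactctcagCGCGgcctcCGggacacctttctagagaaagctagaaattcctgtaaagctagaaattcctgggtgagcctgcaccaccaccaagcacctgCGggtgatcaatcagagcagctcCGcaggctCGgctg
Mael: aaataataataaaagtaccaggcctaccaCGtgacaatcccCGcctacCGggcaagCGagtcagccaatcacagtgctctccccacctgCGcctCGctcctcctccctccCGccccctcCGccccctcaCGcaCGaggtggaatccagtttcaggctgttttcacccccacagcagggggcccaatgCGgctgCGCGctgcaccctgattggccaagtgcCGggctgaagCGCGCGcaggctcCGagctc

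Position relative to genes separated the region classes. Of the regions with both marks, 2212 (56.2%) lay within 1 kb of an end of a protein-coding gene, against 42.8% of the H3K4me3-only regions. Only 372 of the 14865 H3K9me3-only regions did. H3K9me3-only regions lay mostly outside genes: 5978 were 1 to 100 kb from the nearest gene end and 3844 (25.9%) were farther than 100 kb. Regions over 100 kb away made up 3.08% of the H3K4me3-only class and 6.76% of the class with both. Of the H3K9me3 peaks, 383 (2.00%) lay within 1 kb of an H3K4me3 peak without touching it, and 26.7% lay more than 100 kb from any.

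**Figure D1:**
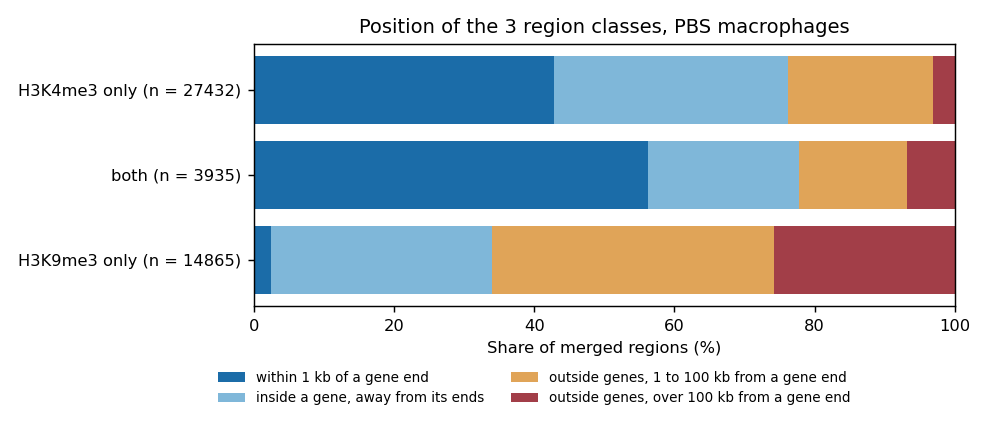
Horizontal bars give the share of merged regions of each class (x axis, percent) in 4 positions relative to protein-coding genes. Gene ends take 56.2% of the regions with both marks and 372 of the 14865 H3K9me3-only regions.

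Where the marks met, the H3K9me3 peak mostly lay inside the H3K4me3 peak. In 3825 of 4298 overlapping pairs (89.0%) it lay wholly inside, and the reverse held in 40 pairs. These counts depend on width, since the median peak was 245 bp wide for H3K9me3 and 1051 bp for H3K4me3. A narrow peak that meets a wide one mostly falls inside it. The summits were 90 bp apart at the median (quartiles 32 and 244 bp). Of 4221 H3K9me3 summits inside an H3K4me3 peak, 57.4% were in the middle part when the peak was split into 3 equal parts. Most of the H3K4me3 peaks met had 1 H3K9me3 peak (3601), while 310 had 2 and 25 had 3 or 4. The lengths differed most at gene ends, where regions with both marks had medians of 2.02 kb of H3K4me3 and 0.297 kb of H3K9me3. Over 100 kb from any gene end the medians were 0.588 and 0.347 kb.

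H3K4me3 peaks that met H3K9me3 were wider and held more tags than the others. Their median width was 1579.5 bp (quartiles 793 and 2330) against 1006 bp (647 and 1576). They held a median of 274 tags (quartiles 49.8 and 467), against 81 (38 and 209). The share met also differed by density: 7.15% of peaks with 50 to 100 tags per kb met H3K9me3, and 40.9% (39.1 to 42.8) of those with 200 tags per kb or more. The least dense peaks, under 50 tags per kb, stood above the next class at 11.5%. Width classes gave the same shape, from 7.67% at 500 to 1000 bp to 30.1% at 4000 bp or more, with 10.3% under 500 bp. A wider peak has more room to meet another, and the part of this in the shares was not tested.

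**Figure D2:**
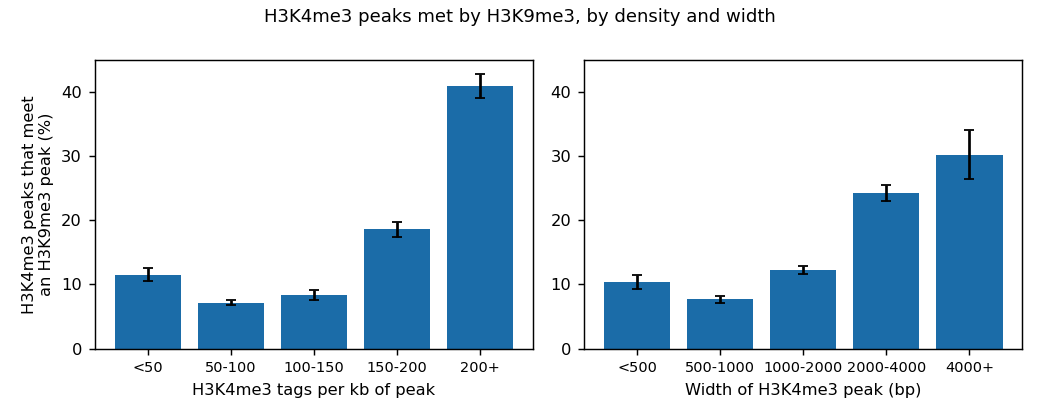
Bars give the percent of H3K4me3 peaks that met an H3K9me3 peak, by H3K4me3 tags per kb of peak (left) and by peak width in bp (right), with exact 95% intervals for counting error. The share is lowest in the second class of both panels and reaches 40.9% in the densest class.

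H3K9me3 peaks that met H3K4me3 were also the stronger ones of their list. They had a median of 22 tags and 300 bp, and the others 16 tags and 236 bp. Of the H3K9me3 peaks under 15 tags, 12.9% met H3K4me3. That share was 57.8% with 40 to 100 tags and 75.8% (70.3 to 80.7) with 100 tags or more. Most of the strongest H3K9me3 peaks in these macrophages thus lay on an H3K4me3 peak.

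The regions with both marks were of different kinds at gene ends and far from them. At gene ends they held a median of 406 H3K4me3 tags and 21 H3K9me3 tags, and H3K9me3 had more tags than H3K4me3 in 35 of 2212 (1.58%). Over 100 kb from any gene end the medians were 31.5 and 33 tags, and H3K9me3 had more tags in 144 of 266 (54.1%). Regions inside genes (medians 68 and 26 tags) and those 1 to 100 kb outside (39 and 33 tags) stood between them. As a log2 ratio of H3K9me3 to H3K4me3 per filtered tag, the medians were -4.05 at gene ends, -0.85 inside genes, 0.05 at 1 to 100 kb and 0.17 beyond. Per covered kb the ratios were -1.36, 0.38, 0.65 and 0.73, since H3K9me3 peaks covered less sequence. Across regions, the rank correlation of the tag numbers was 0.13 at gene ends (n = 2212) and 0.62 beyond 100 kb (n = 266). These regions share the same pair of libraries, and both counts depend on how well a region can be aligned.

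**Figure D3:**
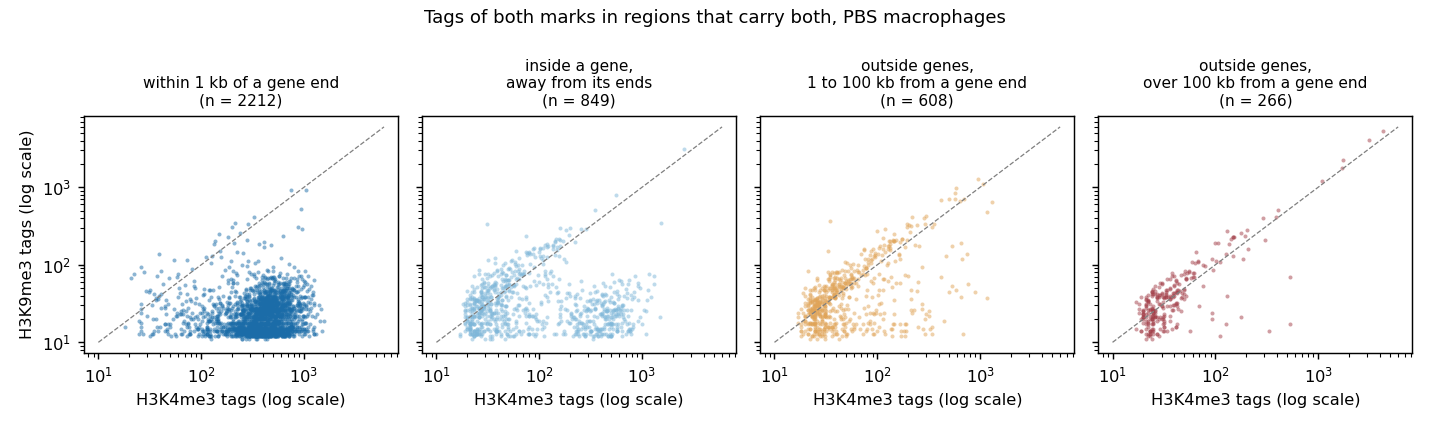
Each point is a region with both marks, with its H3K4me3 tags (x axis, log scale) and H3K9me3 tags (y axis, log scale) in 4 positions relative to genes, and the dashed line marks equal tags. H3K9me3 had more tags in 35 of the 2212 regions at gene ends and in 144 of the 266 over 100 kb away, which lie along the line.

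The 10 regions with both marks and the most H3K9me3 tags had 1.02 to 1.71 times as many H3K9me3 as H3K4me3 tags. The first, at chr14:19415351-19419815 and 114 kb from the nearest gene end, held 4294 H3K4me3 and 5269 H3K9me3 tags. A region at chr17:39842898-39849064 held 3123 and 4111 tags. A region within Tmem267, which encodes a membrane protein, at chr13:119595424-119603680, held 2535 and 3070. The same regions stood out in the LPS libraries, where the first held 3982 and 4959 tags, the second 3275 and 4328, and the third 2415 and 3043. Of 22 regions with both marks and at least 500 H3K9me3 tags, 3 lay within 1 kb of a gene end and 21 were listed for both marks in LPS. Their ratios of H3K9me3 to H3K4me3 tags ran from 0.50 to 1.71, and they held 17.7% of the H3K9me3 tags of all regions with both marks. Over all 3935 regions with both marks, H3K9me3 had more than 0.5 times the H3K4me3 tags in 1199 (30.5%), with no upper limit on the ratio.

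At the other extreme, the region farthest from any gene end was small. It lay at chr1:102627999-102628418, 2137 kb from the nearest gene end (Cntnap5b), and held 25 H3K4me3 and 26 H3K9me3 tags. The LPS lists had H3K9me3 there (23 tags) and no H3K4me3 peak. The next 4, near Pcdh9 and Olfm4 on chromosome 14, Nudt12 on chromosome 17 and Zeb2 on chromosome 2, held 25 to 41 H3K4me3 tags and 12 to 44 H3K9me3 tags.

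The LPS lists were used as a second look at the same places, not as a replicate. H3K4me3-only regions at gene ends met an LPS H3K4me3 peak in 90.7% of cases, and those over 100 kb away in 42.1%. H3K9me3-only regions met an LPS H3K9me3 peak in 23.4% of cases. Of the regions with both marks, 2399 (61.0%) met LPS peaks of both marks, 88.5% met H3K4me3 and 68.0% met H3K9me3. H3K9me3 recurred more often in regions with both marks than in regions of its own, as did peaks with more tags.

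Genes were classed by an H3K4me3 peak within 1 kb of either outer end and an H3K9me3 peak anywhere on the gene or within 1 kb of it. Of 21631 protein-coding genes, 13851 (64.0%) had H3K4me3 at an end and 5603 (25.9%) had H3K9me3. The classes were 9449 genes with H3K4me3 only (43.7%), 4402 with both (20.4%), 1201 with H3K9me3 only (5.55%) and 6579 with neither (30.4%). Gene positions were used as listed and were not checked against the assembled chromosomes. A block of genes listed from base 194 of chromosome 1, with Csprs and Ren2 among them, had neither mark. Whether peaks could be called at such positions was not tested, so the share with neither, and all shares of all genes, may include genes that could not be scored. Overlapping marks at an end were found at 2483 genes (11.5%), of which 2416 were in the class with both. The other 67 were classed as H3K4me3 only, because the H3K9me3 peak lay more than 1 kb beyond the gene. These rested on 2210 H3K4me3 and 2409 H3K9me3 peaks, and 571 of the genes shared such a peak with another gene.

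The classes differed in gene length. The median length was 16.9 kb with H3K4me3 only, 47.3 kb with both, 58.5 kb with H3K9me3 only and 6.5 kb with neither. H3K9me3 was found on 9.24% of genes under 10 kb and on 78.6% of those of 200 kb or more, while overlap at an end went from 6.73% to 12.6%. Of the 1201 genes with H3K9me3 only, 679 (56.5%) had an H3K4me3 peak inside the gene away from its outer ends, and internal starts were not used in the classes. In 349 (29.1%) the marks overlapped there, and 522 had no H3K4me3 peak at all. Of the genes with neither mark at those places, 12.8% had such an internal H3K4me3 peak.

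The strand was known for 17274 genes. H3K4me3 lay at the outer start of 62.2% and at the other end of 10.5%. H3K9me3 lay at 10.3% of starts and 1.80% of other ends, and both marks were present at 9.64% of starts. Of 6163 H3K9me3 peaks inside genes other than the zinc finger family, 44.2% fell in the first 25% of the gene's length. That share was 74.8% among those that met H3K4me3. Those that did not meet it were spread along the gene, with 23.2%, 27.1%, 25.6% and 24.0% in 4 equal parts from start to end. H3K4me3 lay mostly at starts, so this split by itself sorts H3K9me3 peaks by position.

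Among genes with H3K4me3 only, the most tags at the ends were on Pcnx3, with 2441, Polr2l, a subunit shared by the RNA polymerases, with 2080, and Prrt2, a synaptic protein gene, with 1944. Prrt2 shows a limit of the class, since its end peak met an H3K9me3 peak of 44 tags more than 1 kb beyond the gene. Stat6 had 1824 tags over 11.72 kb of peaks in PBS and 1346 in LPS, and neither library pair listed H3K9me3 on it. Gpsm3 and Pbx2, neighbours on chromosome 17 that share a peak, had 1685 each. Ndufs8, a subunit of respiratory complex I, had 1644, and Zbtb7b, a transcription factor of T helper cells, had 1638. Map3k11, a kinase above JNK, had 1630 and Rab11fip5, a factor of endosome recycling, had 1625. Of these 10 genes, Pcnx3, Gpsm3, Pbx2 and Rab11fip5 were classed as both in LPS.

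Among genes with H3K9me3 and no H3K4me3 at an end, Zfp993, a long zinc finger gene of a cluster on chromosome 4, had the most H3K9me3 tags. Its 1967 tags lay in 44 peaks over 21.7 kb, and 18 H3K4me3 peaks with 964 tags lay inside it. Sp140 and Sp110, neighbouring genes on chromosome 1 for chromatin readers of immune cells, had 1664 and 1523 H3K9me3 tags in 5 peaks each, partly the same peaks because the genes overlap. Sp140 had no H3K4me3 peak inside, and Sp110 had an internal peak of 200 H3K4me3 tags that met one of 300 H3K9me3 tags. C130026I21Rik, in the same part of chromosome 1, had 827 H3K9me3 tags in 2 peaks. As background, these genes belong to families with similar members, and the sources used here do not say how tags that align to several copies were treated, so the tags may not belong to 1 gene alone. Mid1, a ubiquitin ligase gene at the pseudoautosomal boundary of X, had 649 H3K9me3 tags in 3 peaks. Zfhx3, a transcription factor gene of 682326 bp, had 452 in 10 peaks and held 18 internal H3K4me3 peaks.

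The genes with the most H3K9me3 in peaks that overlapped H3K4me3 at an end included 6 predicted genes (Gm and LOC symbols), 5 of them on chromosomes 8 and 10. Their sequences were not compared. Duxf3, a member of the Dux tandem array that is active in the early embryo, had 1810 H3K4me3 tags at its ends and 1842 H3K9me3 tags in the overlapping peaks, over 7478 bp. The neighbouring Gm4981 and LOC100504180 had 926 and 916 H3K9me3 tags, and Gm51572, Gm51571 and Gm51573 on chromosome 8 had 836, 781 and 334. Gm40363 on chromosome 6 had 601 such tags over 4200 bp, and Gm21119 on chromosome 8 had 209 over 2406 bp. Where neighbouring genes share peaks, the tags cannot be assigned to 1 gene.

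Fcgr3, also among the genes with the most overlapping H3K9me3, encodes an activating receptor for immunoglobulin G. At its end on chromosome 1, an H3K4me3 peak at 171063410-171067062 with 937 tags enclosed an H3K9me3 peak at 171063685-171067021 with 531 tags, so 3337 bp carried both. Its summits were 66 bp apart. The LPS libraries gave the same class. All H3K4me3 peaks at the ends of Fcgr3 held 985 tags in PBS and 1291 in LPS, and its H3K9me3 peaks held 531 and 703. Eppk1, an epidermal cytoskeletal linker, had 381 H3K4me3 and 412 H3K9me3 tags and 3435 bp of overlap.

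The cell type was checked by the markers. Of 25 macrophage markers, 20 had H3K4me3 at an end (against 64.0% of all genes), among them Cebpb with 1414 tags, Cebpa with 1391, Irf8 with 1014 and Csf1r, the receptor of the macrophage growth factor, with 621. Adgre1, which encodes F4/80, had 133 and Spi1, the transcription factor PU.1, had 38. The LPS library had 542 tags at the ends of Spi1. These counts cover only peaks within 1 kb of the outer ends, and peaks inside Spi1 are not given here, so 38 tags may understate its H3K4me3. Marco and Msr1, both scavenger receptors, had no H3K4me3 peak. Ptprc had 86 tags in 2 peaks inside the gene only, and Cd36, a fatty acid receptor classed with H3K9me3 only, had 128 tags in 3 internal peaks and 29 H3K9me3 tags. Of the other cell types' markers, H3K4me3 was present at 4 of 9 for T cells (Cd4 277 tags, Bcl11b 136, Cd3d 82, Cd5 63) and 3 of 8 for B cells (Cd79a 354). It was present at 1 of 10 for neutrophils, 1 of 9 for eosinophils and mast cells, and 8 of 14 (57.1%) for mesothelium and fibroblasts. The last share is near that of all genes, so these counts alone do not tell the cell types apart. Single members of a list also differed. Cd3e, Ly6g, Siglecf and Msln had none at an end, while Kit, of the eosinophil and mast cell list, had 236 tags. Wt1, of the mesothelium and fibroblast list, had 321. The part of other cells in the peaks was not tested.

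Overlapping marks at an end were found at 2 of the 25 macrophage markers (8%, 0.98 to 26.0), against 11.5% of all genes. They included Cebpa, a transcription factor gene that directs myeloid differentiation, with 1391 H3K4me3 and 30 H3K9me3 tags. Of the 2, only Cebpa had overlapping marks in LPS as well. Mertk (350 and 27 tags), Mrc1 (271 and 27) and Fcgr1 (230 and 18) carried both marks without overlap at an end.

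Interferon-stimulated genes mostly carried H3K4me3 alone in the resting cells. Of 24 such genes, 21 had H3K4me3 only (87.5%, against 43.7% of all genes), from Ifit2 with 55 tags to Cmpk2 with 378 and Bst2 above it. Oasl1, an inhibitor of Irf7 translation, was the member with overlapping marks. Its H3K4me3 peak beyond the gene end, at chr5:114921596-114922783, held 126 tags, and an H3K9me3 peak of 255 bp inside it held 104. In LPS both marks were listed for Oasl1 without overlap at an end. Oas2 carried both marks without overlap at an end (128 and 21 tags), and Isg15 had neither mark. Of 23 inflammatory mediators, 13 had H3K4me3 only (56.5%), including Il27 with 856 tags, Tnf with 348 and Il6 with 37. Another 8 had neither mark (34.8%, near the 30.4% of all genes). Il1a, Il1b, Ccl2, Ccl5 and Nos2 were among the 8, and Nos2 had an internal H3K4me3 peak of 89 tags. Cxcl1, a neutrophil attractant, had overlapping marks (148 and 18 tags), and Il18 had 61 H3K4me3 tags at an end and 48 H3K9me3 tags within the gene.

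Housekeeping lists give the level of overlap at steadily used promoters. Of 20 housekeeping genes, 19 had H3K4me3 at an end and 3 had overlapping marks: Eef1a1 (494 and 20 tags), Rplp0 (560 and 16) and Rab7 (457 and 12). Ywhaz, classed with H3K9me3 only, had its H3K4me3 inside the gene, a peak of 920 tags at chr15:36790584-36794975, with an H3K9me3 peak of 59 tags on it. Of 76 ribosomal protein genes, 67 had H3K4me3 only and 6 had overlapping marks (7.89%, 2.95 to 16.4), led by Rpl10a with 659 and 47 tags. All but 1 of the 63 replication-dependent histone genes had H3K4me3 only (98.4%), and none had H3K9me3, against 25.9% of all genes. Histone genes are short, with a median of 0.492 kb.

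**Figure D4:**
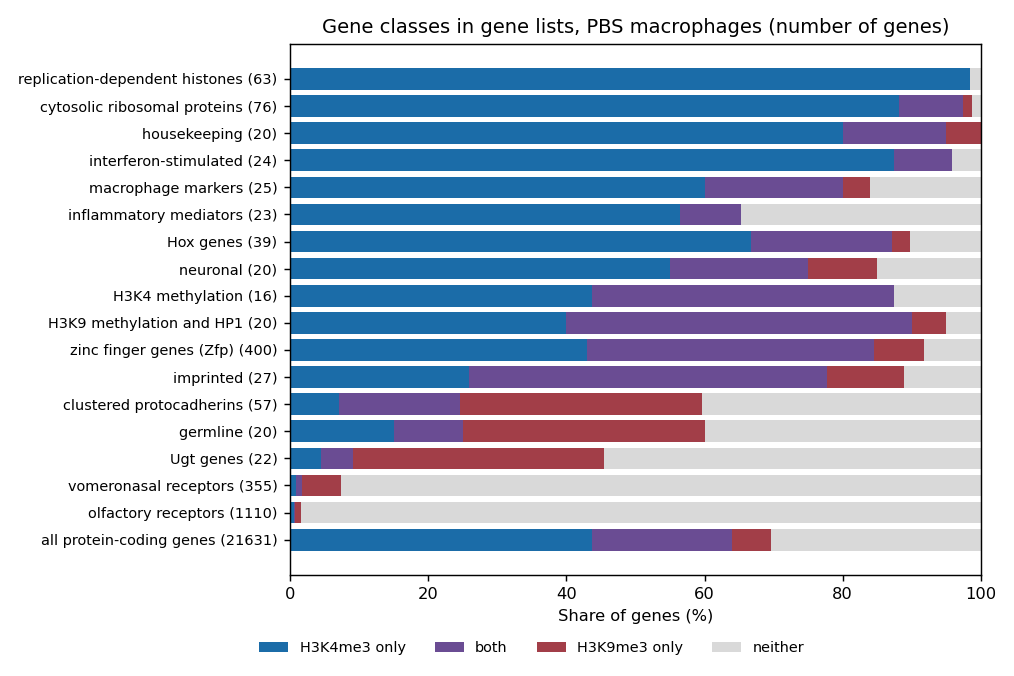
Horizontal bars give the percent of genes in each of the 4 classes for the gene lists and for all 21631 protein-coding genes, with the number of genes in brackets. Histone and ribosomal protein genes are nearly all H3K4me3 only, and 98.4% of olfactory receptors have neither. The largest shares with both marks are those of the imprinted (51.9%), H3K9 methylation and HP1 (50%), H3K4 methylation (43.75%) and zinc finger (41.5%) lists.

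Genes of the H3K9 and H3K4 methylation machinery carried both marks in 10 of 20 and 7 of 16 cases, against 20.4% of all genes. Their median lengths were 42.2 and 30.0 kb, against 17.3 kb for all genes. Longer genes more often had H3K9me3 somewhere on them, and the part of length in these shares was not tested. Of the 20 genes for H3K9 methylation and HP1, 6 had overlapping marks at an end (30.0%, 11.9 to 54.3), against 11.5% of all genes. They were Ehmt2 (803 H3K4me3 tags at its ends and 47 H3K9me3 tags in the overlap), which encodes the methyltransferase G9a, Kdm3b (558 and 38), a demethylase, Atf7ip (74 and 19), a partner of SETDB1, Suv39h2 (369 and 22), Trim28 (714 and 13), the cofactor of zinc finger repressors, and Morc2a (544 and 13). Tasor, a subunit of the HUSH complex, had overlapping marks inside the gene, 342 and 31 tags. Of 16 genes for H3K4 methylation, 5 had overlapping marks (31.3%, with an interval that reaches up to 58.7 and includes the share of all genes): Kmt2a (1028 H3K4me3 tags at its ends, 38 H3K9me3 tags in the overlap), Kdm5b (692 and 21), Kmt2b (764 and 19), Setd1a (927 and 15) and Setd1b (1031 and 14). The overlap was listed in LPS too for 4 of the 6 and 2 of the 5. Among all H3K4me3 peaks with 400 tags or more, 38.3% met H3K9me3.

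Of 27 imprinted genes, 10 had overlapping marks at an end (37.0%, 19.4 to 57.6), the highest share of the lists described here, with an interval that includes the shares of the methylation lists. All 10 had overlapping marks in the LPS libraries as well. Cdkn1c, a growth inhibitor expressed from the maternal copy, had 366 H3K4me3 tags and 183 H3K9me3 tags over 2070 bp of overlap. Igf2r, the receptor that clears insulin-like growth factor 2, had 326 and 76 tags. Peg10, a gene of retroviral origin, had 232 and 41 in the overlapping peaks, and Sgce, which starts next to it in the other direction, had 145 and 20. Peg3 and Usp29 shared 1 peak pair of 106 and 25 tags over 377 bp, with summits 83 bp apart. Grb10, Kcnq1, Inpp5f and Peg12 were the others.

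Outside the gene ends, imprinted genes showed overlaps at internal places. Mest, classed with H3K9me3 only, had an H3K4me3 peak of 152 tags at chr6:30737349-30738728 with an H3K9me3 peak of 44 tags wholly inside it. Igf2 had 214 and 21 tags in such a pair, and Gnas had 2 pairs, of 76 and 26 tags and of 1049 and 26 tags. Snrpn had 51 H3K9me3 tags and 2 internal H3K4me3 peaks that did not meet them. The H3K9me3 peaks at these imprinted genes were mostly weak, down to the 15 tags of Peg12, where the fewest tags in any listed H3K9me3 peak were 11.

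Of 20 germ cell genes, 7 had H3K9me3 and no H3K4me3 at an end (35.0%, against 5.55% of all genes). They were Tdrd1 (51 tags in 2 peaks), Brdt (33), a bromodomain protein of sperm precursors, Mael (30), Sycp1 (27), part of the synaptonemal complex, Tex11 (21), Tdrd6 (18) and Taf7l (13). In LPS, Brdt, Tdrd6 and Taf7l had no H3K9me3 peak, while Tdrd1 had 65 tags, Sycp1 51, Mael 17 and Tex11 14. Dazl had both marks in balance, 155 H3K4me3 and 127 H3K9me3 tags over 1161 bp in PBS, and 144 and 121 in LPS. Ddx4, the germ cell helicase Vasa, had 39 and 40 tags over 517 bp, and 53 and 86 in LPS. No other listed germ cell gene had overlapping marks at an end. At both genes the tags of the marks were near equal, where the median over genes with overlap was 411 H3K4me3 and 21 H3K9me3 tags.

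Zinc finger genes, named Zfp, carried H3K9me3 on 195 of 400 (48.8%), against 25.9% of all genes. They had H3K4me3 at an end in 84.5% of cases and overlapping marks in 12.3% (9.20 to 15.9), against 11.5% of all genes. All 284 H3K9me3 peaks on these genes were spread along them, with 23.9%, 23.2%, 22.2% and 30.6% in 4 equal parts from start to end. Of the 215 that met no H3K4me3, 37.7% fell in the last 25% of the gene's length and 14.4% in the first 25%. Leaving out peaks that met H3K4me3 removes peaks near starts, so the second set of shares alone does not show a position of H3K9me3. At the outer start 10.5% of 333 Zfp genes had H3K9me3, as did 10.2% of other genes, and at the other end 6.31% did, against 1.71%. Zfp978 on chromosome 4 had 2618 H3K9me3 tags in 38 peaks together with H3K4me3 at an end. Zfp579 had 180 H3K9me3 tags over 1591 bp of overlap with 474 H3K4me3 tags, and Zfp664 had 101 with 711.

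Other families and lists are given beside the shares of all genes, 64.0% with H3K4me3 at an end, 25.9% with H3K9me3, 5.55% with H3K9me3 only, 30.4% with neither and 11.5% with overlap at an end. Of 57 clustered protocadherins, cell surface proteins of neurons, 30 had H3K9me3 (52.6%) and 14 had H3K4me3 at an end (24.6%), with peaks shared because the genes overlap along the cluster. Their median length was 90.3 kb, against 17.3 kb for all genes. Of 22 Ugt genes, enzymes that attach glucuronic acid, 8 had H3K9me3 only (36.4%), and Ugt1a10, Ugt1a9 and Ugt1a8 shared the same 6 peaks of 343 tags. Olfactory receptors had neither mark in 1092 of 1110 cases (98.4%) and vomeronasal receptors in 329 of 355 (92.7%). Of 39 Hox genes, 26 had H3K4me3 only and 7 had overlapping marks (17.9%, 7.54 to 33.5), led by Hoxd8 with 281 and 66 tags. Neuronal genes had H3K4me3 at an end in 15 of 20 (75%) and overlap in 2 (10%, 1.23 to 31.7, which includes the share of all genes), Neurod2 (400 and 33 tags) and Slc17a7 (163 and 15).

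SUN proteins, the subject of the series by its title, are membrane proteins of the nuclear envelope that anchor nesprins. Sun1 (453 tags) and Sun2 (473 tags) had H3K4me3 only. Sun5, a sperm protein gene, had H3K9me3 only, with 65 tags, and was the 1 gene of the 10 listed in that class. In all, 6 of the 10 had H3K4me3 only, among them also Sun3 (101 tags), Spag4 (343) and Kash5 (259). Syne1 and Syne3, which encode nesprins, carried both marks without overlap at an end (108 and 63 tags, and 445 and 25).

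The sequence upstream of the genes, which the classes did not use, differed between them. Genes with H3K9me3 only or with neither have no H3K4me3 peak at an outer end by definition. Of those with H3K9me3 only, 56.5% had an H3K4me3 peak inside the gene, and sequence at internal starts was not analysed. RefSeq sequence of the 250 bases upstream of the start was matched by symbol for 17268 of 21120 genes (81.8%), and chromosome 18 was not analysed here. The median CpG observed over expected was 0.71 with H3K4me3 only, 0.75 with both, 0.80 with overlapping marks at an end, 0.31 with H3K9me3 only and 0.16 with neither. A value of at least 0.6 was reached by 64.5%, 71.0%, 77.9%, 22.8% and 6.29% of these, against 45.8% of all genes. Median GC was 59.2%, 63.2%, 65.2%, 50% and 45.6%. Where peaks of both marks lay on the 250 bases themselves, at 414 genes, the medians rose to 0.86 and 71% GC. The densest H3K4me3 peaks were also those met most often, and how far base composition affects the recovery of DNA in both libraries was not tested.

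**Figure D5:**
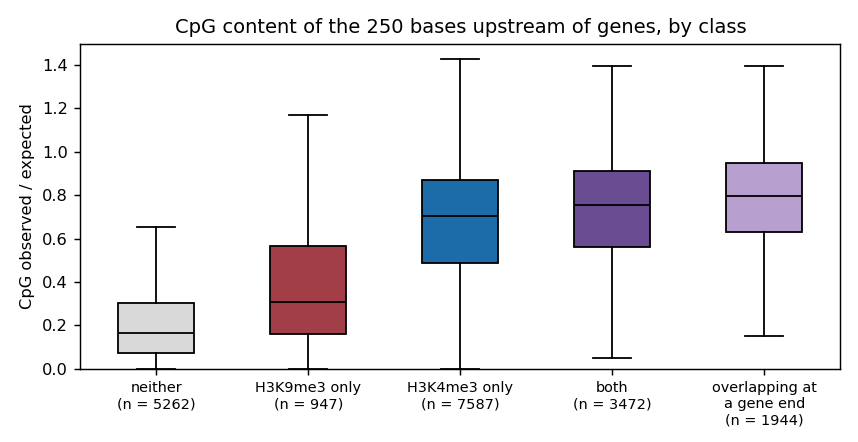
Boxes give the median and quartiles of CpG observed over expected (y axis) in the 250 bases upstream of genes of each class, with whiskers to the last gene within 1.5 times the box height and the number of genes below. Medians run from 0.16 with neither mark to 0.80 with overlapping marks at an end.

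The letters CACGTG, which read the same on both strands and form the E-box bound by factors such as MYC, MAX and MGA, were searched in the same 250 bases. They were found upstream of 1163 of the 17268 genes (6.74%). Among the germ cell genes they were found upstream of 11 of the 17 with sequence (64.7%). Mael has them in the stretch printed above, and Tdrd1 has them in the part of its 250 bases that is not printed. Dazl does not have them. Of the germ cell genes without H3K9me3, 5 of 10 had them. A match is a string of letters and was not tested as a site.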

How the data were processed

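ChIP-seq peak lists of H3K4me3 and H3K9me3 in PBS macrophages were analysed, with the LPS lists only as a second look. Tools named in the submitters' processing notes are Bowtie 0.12.8, MACS 1.4.2, CASAVA 1.4 and DiffBind, with the build mm10. Per the file headers, MACS ran on each library alone, without a control, with p at 1e-05, band width 300, genome size 1.87e+09, local background 10000 and at most 1 tag kept per position. Each deposited list gives per peak a count of tags, the authors' score (from the caller's p) and the authors' fold enrichment, a ratio to the local background. Score and fold were used only within a list, and the lowest listed tag counts were 17 for H3K4me3 and 11 for H3K9me3. Treatment of reads that align to several places is not given in the sources used here.

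Peaks on chromosomes 1 to 19 and X were intersected at 1 bp with Python 3.11.15, numpy 2.4.6 and pandas 2.3.3. The counts were the same with bedtools 2.31.1, and the scripts were tested on simulated data. Intervals came from scipy 1.17.1 and plots from matplotlib 3.10.9. Overlapping peaks of both lists were merged into regions. Genes were the 21631 protein-coding genes of RefSeq GRCm38.p6, with a window of 1 kb at the outer ends, and strand and upstream sequence came from its promoter table. No group had replicates, so no test was made.

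The members and gene lists were chosen with earlier results of these data known. Named genes were the 10 with the most H3K4me3 tags at an end and no H3K9me3, the 10 with the most H3K9me3 tags and no H3K4me3 at an end, the 10 overlapping ends with the most H3K9me3 tags and the 10 with the longest overlap. Named regions were the 10 with both marks and the most H3K9me3 tags, of which the first 3 are described, and the 5 farthest from a gene end. From each list the members with overlap (at most 4 where there were more than 6) and up to 4 with the most tags were named, and any marker could be named. Other named genes, among them the internal overlaps, were chosen after their values were seen. Alternatives changed the score minimum, the overlap, the list length, the chromosomes, the window, the gene end and the gene set. Some members of the marker lists are not reported here by name.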

Additional observations from a re-analysis of the deposited data

Results flagged for a closer look

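Peaks on chromosome Y lay outside the chromosomes compared. The PBS libraries listed 30 H3K4me3 peaks and 117 H3K9me3 peaks there, so H3K9me3 had more peaks than H3K4me3 on Y, the reverse of the other chromosomes. No control library was used, and repeats on Y that align to several places were not separated, so these peaks are given as numbers only.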

How the results depend on the processing

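The results were recomputed under each alternative. With peaks of score 100 or more in both lists, 1039 H3K4me3 peaks (5.30%) met H3K9me3 and 1074 H3K9me3 peaks (38.4%) met H3K4me3. Genes then numbered 331 with H3K9me3 only, 1118 with both and 654 with overlapping marks at an end. The median width became 1763 bp for H3K4me3 peaks that met H3K9me3 and 1419 bp for the others, with 363 and 184 tags. An alternative chosen after seeing the data kept only PBS peaks met by the LPS list of the same mark. It left 2263 H3K4me3 and 2450 H3K9me3 peaks that met the other mark, and 562 genes with H3K9me3 only, 2210 with both and 1401 with overlapping marks. Genes with H3K9me3 only were 776 of the 17274 with a known strand (4.49%) when the annotated start was used, which changes the gene set as well, and 2641 of 49554 (5.33%) with all genes of the table, against 5.55%. Of 48 recomputed values, 16 moved in this way. These settings use fewer peaks or another set of genes, and any further cause was not tested. The other 32 stayed within 1.5 times the count or within the interval of the median. No paired analysis was possible because each group has 1 library. Scores under 100 belonged to 85.4% of the H3K9me3 peaks and 37.5% of the H3K4me3 peaks at similar depth, and the part of depth in this was not tested.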

Other observations

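The share of H3K9me3 peaks that met H3K4me3 in PBS macrophages differed between chromosomes. It was 30.9% (27.9 to 34.0) on chromosome 11 and 29.3% on chromosome 19, and 11.2% (8.43 to 14.6) on X. Chromosomes 11 and 19 also had the most H3K4me3 peaks per H3K9me3 peak, 2.59 and 2.49. X had 1.48, within the range of the other autosomes, and 6.80% of its H3K4me3 peaks met H3K9me3, the lowest share of the 20 chromosomes, against 12.5% in all.

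Families of liver and protease inhibitor genes were mostly without either mark. Of 57 Cyp2 and Cyp3 genes, which encode enzymes that oxidise drugs and lipids, 43 had neither mark (75.4%, against 30.4% of all genes). Another 6 had H3K4me3 only (10.5%, against 43.7%) and 8 had H3K9me3 only (14.0%, against 5.55%), with Cyp3a41b highest at 71 H3K9me3 tags in 3 peaks. Of 52 Serpina and Serpinb genes, 46 had neither mark (88.5%, against 30.4% of all genes) and 1 had overlapping marks at an end (1.92%, against 11.5%).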
